A study of Mus musculus with 9 samples.

Results

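The estrogen receptors Esr1 and Esr2, the membrane estrogen receptor Gper1, the estrogen-related receptors Esrra, Esrrb and Esrrg, and the progesterone receptor Pgr were examined in the fetal and newborn urogenital sinus of the mouse. The members were the 7 genes, taken through every probe set (a group of short oligonucleotides read as 1 value) that the array annotation assigned to one of these symbols alone, on all 9 arrays. There were 17 such probe sets among the 34958 that carried 1 symbol, and 7 genes among 18193. The tissue came from C57BL/6 fetuses and newborns whose mothers had been given an agent from embryonic day 13 to embryonic day 16. The control group received the corn oil vehicle, the DES group received the synthetic estrogen diethylstilbestrol at 0.2 µg/kg/day, and the BPA group received bisphenol A, a plastics monomer, at 20 µg/kg/day in the same vehicle. Each group was sampled at embryonic day 17 (E17), at embryonic day 18 (E18) and on the day of birth (P0), with 1 Affymetrix array for each agent at each age. The number of animals or litters behind an array and the sex of the animals are not stated in the labels, which name both male and female tracts as the source. The 3 arrays of an agent therefore differ in age, and the error of every comparison is the spread left after an additive effect of age and agent.

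Esr1 and Esr2 are nuclear receptors that bind estradiol and then bind DNA at estrogen response elements, alone or with coactivators and pioneer factors. In the urogenital sinus, the primordium of the prostate and of part of the urethra and vagina, Esr1 is known chiefly from the mesenchyme, and Pgr is a classical target gene of Esr1 in the reproductive tract. The estrogen-related receptors share the DNA-binding fold of the estrogen receptors but are not activated by estradiol. They are best known as regulators of mitochondrial and oxidative metabolism genes. Diethylstilbestrol is a potent ligand of both nuclear estrogen receptors, and bisphenol A is a weak ligand of them that binds estrogen-related receptor gamma tightly.

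The start-site windows of Pgr, Esr1 and Esrra are shown because these genes had the largest fitted differences among the members, Pgr and Esr1 between DES and control and Esr1 and Esrra between ages. Each window runs from 250 bases before to 50 bases after a RefSeq start site, 5′ to 3′ on the strand of the gene, and capitals mark an exact match to a motif named after the sequences.
Pgr, GRCm38.p6 chr9:8899583-8899882, plus strand: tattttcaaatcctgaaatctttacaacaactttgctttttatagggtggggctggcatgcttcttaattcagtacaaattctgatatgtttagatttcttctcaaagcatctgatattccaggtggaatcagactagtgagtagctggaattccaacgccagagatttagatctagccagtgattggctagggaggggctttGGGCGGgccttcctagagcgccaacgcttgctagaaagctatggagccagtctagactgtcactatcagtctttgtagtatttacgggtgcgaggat
Esr1 upstream start, GRCm38.p6 chr10:4611739-4612038, plus strand: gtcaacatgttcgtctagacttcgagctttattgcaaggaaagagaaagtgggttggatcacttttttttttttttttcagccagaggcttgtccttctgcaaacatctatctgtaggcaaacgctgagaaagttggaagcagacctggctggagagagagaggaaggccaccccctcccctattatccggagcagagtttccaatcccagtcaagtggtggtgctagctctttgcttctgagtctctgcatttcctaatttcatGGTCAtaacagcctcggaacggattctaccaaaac
Esr1 downstream start, GRCm38.p6 chr10:4709908-4710207, plus strand: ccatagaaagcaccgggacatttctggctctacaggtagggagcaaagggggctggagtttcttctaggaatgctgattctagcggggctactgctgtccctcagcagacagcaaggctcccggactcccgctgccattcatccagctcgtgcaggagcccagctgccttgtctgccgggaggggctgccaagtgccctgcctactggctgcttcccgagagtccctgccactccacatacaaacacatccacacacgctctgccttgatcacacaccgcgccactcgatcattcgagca
Esrra, GRCm38.p6 chr19:6921759-6922058, minus strand: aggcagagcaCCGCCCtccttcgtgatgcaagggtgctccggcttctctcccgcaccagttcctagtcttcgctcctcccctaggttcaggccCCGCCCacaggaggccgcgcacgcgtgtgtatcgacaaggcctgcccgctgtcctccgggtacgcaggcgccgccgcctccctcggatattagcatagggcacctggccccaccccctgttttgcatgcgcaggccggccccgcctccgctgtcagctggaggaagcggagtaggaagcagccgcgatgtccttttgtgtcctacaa
Esr1 had 2 such windows, and all 7 members had at least 1, with 12 windows in all. The motifs searched on both strands were the estrogen response element half-site GGTCA, the full estrogen response element GGTCANNNTGACC, the estrogen-related receptor element TCAAGGTCA, the progesterone response element half-site TGTTCT, the Sp1 site GGGCGG and the AP-1 site TGANTCA. The half-site GGTCA lies inside both the full element and the estrogen-related receptor element. The window of Pgr held 1 GGGCGG, starting 47 bases before the start site, and no half-site. The upstream window of Esr1 held 1 GGTCA starting at base 16 after the start site, and the downstream window held none of the motifs. The window of Esrra held GGGCGG on the opposite strand in 2 places, 240 and 157 bases before the start site, and was rich in CpG, with 25 CpG pairs and 66.0% G and C against 6 pairs and 43.7% for Pgr. The median over the 32851 windows of all genes was 7 CpG pairs and 52.7% G and C. Among the 12 member windows, 4 held GGTCA, 5 held GGGCGG, 1 held TGTTCT and 1 held TGANTCA. Over all 32851 windows the shares were 40.5% for GGTCA, 35.7% for GGGCGG, 19.0% for TGTTCT and 7.81% for TGANTCA. The full estrogen response element was in 0 of the 12 windows and in 0.07% of all windows. The estrogen-related receptor element was in 0 of the 12 and in 0.423% of all. These are matches of letters in short windows and say nothing of binding elsewhere.

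Signals are MAS5 intensities normalised to a common distribution, and differences are on a log2(signal + 5.46) scale. A probe set was tested when its mean over the 9 arrays reached the 40th percentile of all probe sets, a signal of about 41.0. Of the 17 member probe sets 11 passed, covering 6 of the 7 genes, and the only probe set of Esr2 did not pass. Markers of the urogenital sinus epithelium and mesenchyme were above this level on the arrays for 11 of 11 and 9 of 9 genes measured. Several arrays stood apart in markers of sex or of other tissues. The BPA P0 array was dimmer as deposited, with a trimmed mean of 157 against 235 to 277 on the others. On it the summed signal of the germ cell list was 687 against 122 to 184 elsewhere. That of the Sertoli or granulosa cell list was 5671 against 1944 to 2466, and that of the steroid-making cell list was 1282 against 162 to 272. Not every listed gene rose. Hsd3b1, at 886, made most of the last sum, while Star (101) and Cyp11b1 (40.2) were inside the range of the other arrays. So were Dppa3 (41.8) of the germ cell list and Sox9 (184) of the Sertoli or granulosa cell list on that array. The skin-type keratinised epithelium list summed to 24432 there, to 8988 on the BPA E18 array and to 1298 to 2665 on the other 7. The intestine list summed to 815 on the BPA E17 array against 252 to 376 elsewhere. Fabp2 (378) and Fabp1 (180) were high there, while Cdx1, Vil1 and Lgr5 were inside the range of the other arrays. The red cell list summed to 2318 on the BPA E18 array against 399 to 1276, mostly from Alas2 (1997). The DES E17 array was the only one with a high signal of Xist, the RNA expressed from the inactive X chromosome in female cells, on each of its 3 probe sets: 1427262_at read 874 there and 1.27 to 10.3 on the other 8. The Y-linked Eif2s3y (1417210_at) read 295 there against 357 to 593, and the Y-linked Kdm5d (1424903_at) read 208 against 277 to 337. The Y-linked Uty (1426598_at) read 252 there, inside the range of 196 to 323 on the others. These genes were looked up after values had been seen. The part of sex or of gonad, skin, intestine or blood tissue in the differences between agents was not tested. Values without the BPA P0 or the DES E17 array are given beside the results they move.

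No receptor differed between agents at an adjusted p under 0.05 by limma. The largest fitted differences between DES and control belonged to Esr1, at 1.39-fold (probe set 1460591_at) and 1.73-fold (1435663_at), and to Pgr at 1.48-fold, on the log2(signal + 5.46) scale. Of the 11 tested receptor probe sets 0 were called for DES against control, where the share called among all 27022 probe sets was 0%, and 0 for BPA against control, where it was also 0%. At an unadjusted p under 0.05 limma gave 3 of the 11 and 1521 of all for DES, and 0 of the 11 and 2120 of all for BPA. The DES and BPA differences rest on the same 3 control arrays, and the doses differ, so they are given side by side and were not compared with each other.

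**Figure D1:**
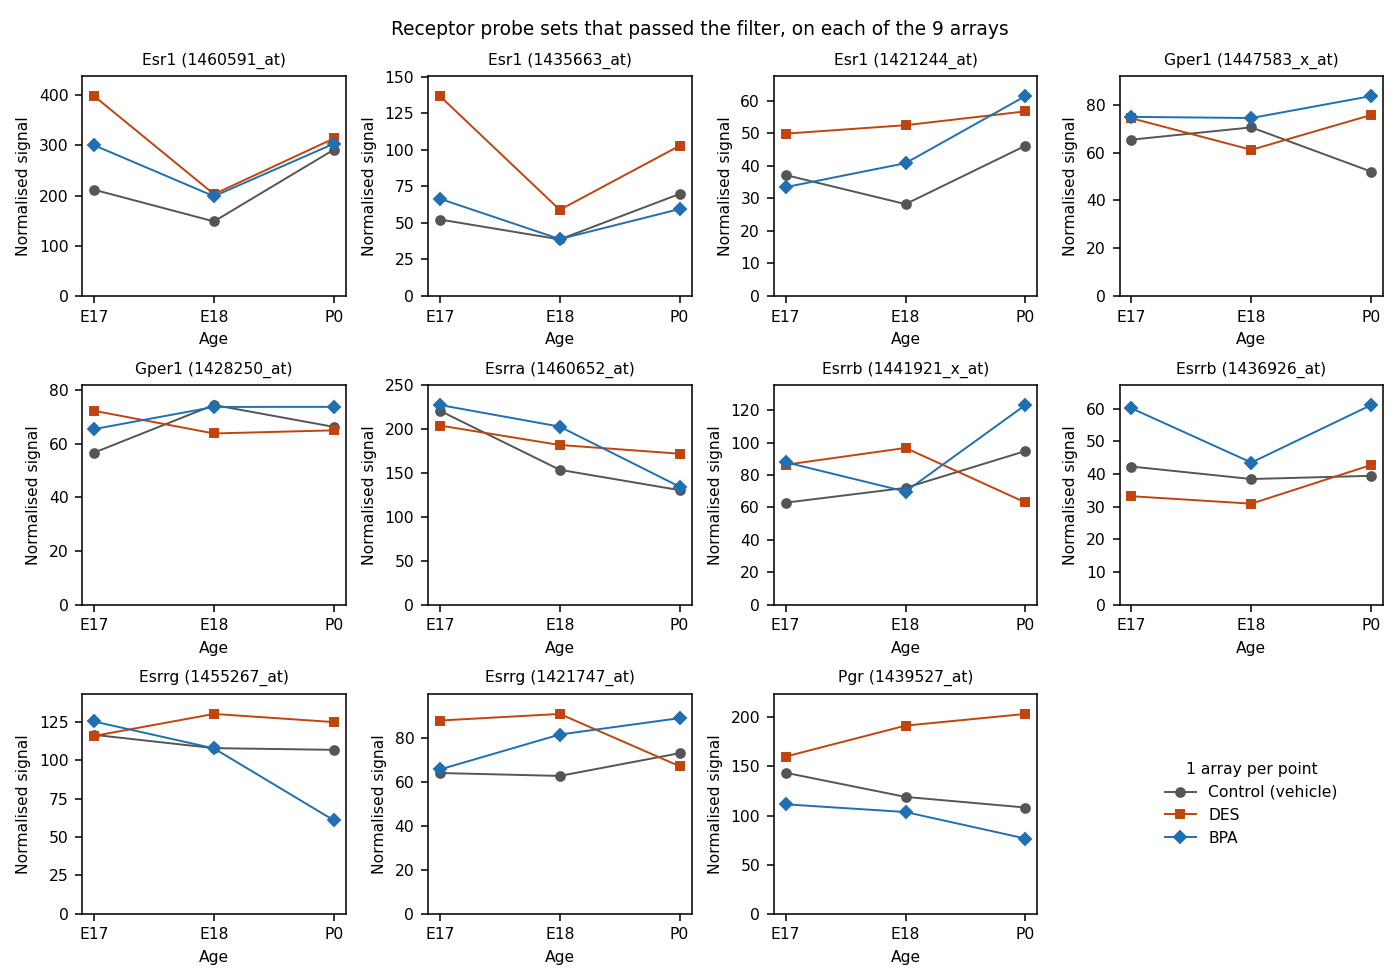
Normalised signal (vertical axes, linear, from 0) of the 11 receptor probe sets that passed the filter, by age (horizontal axes), with 1 array per point and lines joining the arrays of an agent. Pgr on DES arrays lies above all control arrays, at 160.1 to 203 against 108 to 144, and Esr1 1460591_at is lowest at E18 with each agent.

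Esr1, the main nuclear estrogen receptor of this tissue, was measured by 3 probe sets. The brightest, 1460591_at, read 212, 148 and 291 on control arrays, in the order E17, E18 and P0 that is kept in every such list. It read 398, 203 and 314 on the DES arrays and 300.2, 199 and 303 on the BPA arrays at the same ages. Both exposed groups were above the same-age control at all 3 ages, while the ranges of the groups overlapped. The excess of DES over control was 1.88-fold at E17, 1.37-fold at E18 and 1.08-fold at P0. The fitted DES difference was 0.48 ± 0.16 (SE, 3 arrays against 3), with a 95% interval of 0.13 to 0.83 and an adjusted p of 0.844 by limma. The array with the highest Esr1, DES E17, is the one with the Xist signal, and without it the difference was 0.31. Over all alternative settings and sets of arrays the difference ran from 0.29 to 0.64.

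The second Esr1 probe set, 1435663_at, read 52.3, 38.7 and 69.8 on the control arrays, 137, 58.9 and 103 on the DES arrays and 66.5, 38.9 and 59.5 on the BPA arrays. DES was again above control at each age, most at E17 (2.62-fold), and the groups overlapped because the control P0 array was above the DES E18 array. The fitted DES difference was 0.79 ± 0.22 (SE), with a 95% interval of 0.31 to 1.27 and an adjusted p of 0.844 by limma. It was 0.60 without the DES E17 array, and 0.58 to 0.92 over all alternative settings and sets of arrays. The third, 1421244_at, read 37.1, 28.2 and 46.1 on control arrays, 49.8, 52.4 and 56.7 on DES arrays and 33.4, 40.8 and 61.4 on BPA arrays. Its means were 37.1 for control, 53.0 for DES and 45.2 for BPA, so it passed the filter of 41.0 through the exposed arrays, and an excess over control was in part set by that choice. All 3 DES arrays were above all 3 control arrays, and the fitted difference was 0.48 ± 0.24 (SE), with an adjusted p of 0.852 by limma. Over the 9 arrays the first pair of Esr1 probe sets ran together (Pearson r 0.88), and 1421244_at followed them less closely (r 0.54 and 0.59). These correlations are descriptions, since the arrays share agents and ages.

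For BPA, Esr1 gave differences of 0.32 ± 0.16 (SE, adjusted p 0.680 by limma) with 1460591_at, 0.04 ± 0.22 with 1435663_at and 0.23 ± 0.24 with 1421244_at. The first was 1.42-fold at E17, 1.34-fold at E18 and 1.04-fold at P0. With the deposited values left unscaled it was 0.06, and without the control E17 array it was 0.17. Over all alternative settings and sets of arrays it ran from 0.06 to 0.48. The small difference of 1435663_at turned to -0.15 on the unscaled values. That of 1421244_at was 0.054 on the unscaled values, 0.10 without the control E18 array and 0.11 without the BPA P0 array, against 0.35 without the control E17 array and 0.39 without the BPA E17 array. The 95% interval of the 1460591_at difference, -0.03 to 0.67, includes both no difference and one of the size fitted for DES.

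Esr2, the second nuclear estrogen receptor, had no signal above the filter. Its probe set 1426103_a_at lay at the 13.3 percentile of all probe sets, with signals of 3.78 to 24.7 over the 9 arrays. It read 4.96, 3.78 and 17.9 on control arrays, 8.01, 8.89 and 6.38 on DES arrays and 9.94, 24.7 and 5.23 on BPA arrays. No order of agents or ages can be read from values this low.

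Gper1, a membrane receptor coupled to G proteins that binds estradiol, was measured by 2 probe sets. The first, 1447583_x_at, read 65.4, 70.6 and 52.0 on control arrays, 74.4, 61.2 and 75.8 on DES arrays and 75.0, 74.5 and 83.7 on BPA arrays. All 3 BPA arrays were above all 3 control arrays, and the fitted difference was 0.30 ± 0.20 (SE, adjusted p 0.764 by limma). It was 0.13 without the control P0 array, the lowest of the 9, and 0.10 on unscaled values. Over all alternative settings and sets of arrays it reached 0.44. The second probe set, 1428250_at, read 56.6, 74.3 and 66.2 on control arrays, 72.2, 63.7 and 64.9 on DES arrays and 65.4, 73.6 and 73.6 on BPA arrays. Its differences were 0.03 ± 0.19 (SE) for DES and 0.11 ± 0.19 for BPA, so the pair did not share the BPA excess at E18. The small DES difference of 1428250_at turned negative, to -0.01, when arrays were scaled to a common trimmed mean, and the BPA one turned to -0.09 on unscaled values.

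Pgr, the nuclear receptor for progesterone, had the member probe set whose DES and BPA arrays lay on opposite sides of control. Probe set 1439527_at read 144, 119 and 108 on control arrays. It read 160.1, 192 and 203 on the DES arrays and 111, 104 and 76.6 on the BPA arrays. Every DES array was above every control array, and each BPA array was below the control array of its age, with overlapping ranges. The excess of DES over control was 1.12-fold at E17, 1.61-fold at E18 and 1.88-fold at P0. BPA was 0.78 of control at E17, 0.87 at E18 and 0.71 at P0. Group means were 124 ± 18.1 for control, 185 ± 22.4 for DES and 97.2 ± 18.3 for BPA (SD, n = 3).

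The fitted difference of Pgr was 0.56 ± 0.18 (SE) for DES, with a 95% interval of 0.15 to 0.98 and an adjusted p of 0.844 by limma. For BPA it was -0.34 ± 0.18, with an interval of -0.75 to 0.08 and an adjusted p of 0.710. Leaving out the DES P0 array gave 0.37 for DES, and leaving out the DES E17 array gave 0.77. Leaving out the BPA P0 array, with its gonad marker signal, gave -0.19 for BPA, and the unscaled values gave -0.54. The other Pgr probe sets were below the filter. Of these 1421444_at read 6.13, 13.5 and 9.37 on control arrays, 25.2, 16.4 and 17.6 on DES arrays and 20.6, 20.1 and 13.3 on BPA arrays, and 1455772_at stayed between 3.45 and 7.20. On 1421444_at both exposed groups were above the same-age controls at every age, so the BPA direction of the bright probe set did not recur on it. Markers of other tissues that express Pgr or Esr1 moved with DES in part: the Mullerian duct list (6 genes measured) summed to 843 to 885 on DES arrays, to 704 to 789 on control arrays and to 755 to 889 on BPA arrays. The urothelium list (6 genes) summed to 4931 to 6458 with DES, 3952 to 4635 with control and 5387 to 7441 with BPA, and the neuron list (7 genes) to 6801 to 7465, 7901 to 8898 and 7017 to 7331. Their part in the Pgr and Esr1 differences was not tested.

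The estrogen-related receptors showed smaller DES differences. Esrra, the most widely expressed of them, read 221, 154 and 131 with 1460652_at on control arrays, 204, 182 and 172 on DES arrays and 227, 203 and 134 on BPA arrays. Its differences were 0.17 ± 0.15 (SE, adjusted p 0.890 by limma) for DES and 0.16 ± 0.15 (adjusted p 0.853) for BPA. BPA arrays were above control at all 3 ages by 1.03-fold, 1.32-fold and 1.03-fold. Single arrays moved both. The DES difference was 0.09 without the control E18 array and 0.03 without the DES P0 array, against 0.27 without the control E17 array and 0.28 without the DES E17 array. The BPA difference was 0.08 without the control E18 array and 0.06 without the BPA E18 array, against 0.26 without the control E17 array and 0.27 without the BPA P0 array. On unscaled values it was -0.08. The second Esrra probe set, 1442864_at, was below the filter and ran from 5.97 to 65.9.

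Esrrb, known from trophoblast and pluripotent cells, had 2 tested probe sets that ran apart (r 0.26 over the 9 arrays). The brighter, 1441921_x_at, read 62.9, 72.1 and 94.7 on control arrays, 86.3, 96.7 and 63.1 on DES arrays and 87.8, 69.8 and 123 on BPA arrays. The dimmer, 1436926_at, read 42.3, 38.5 and 39.5 on control arrays, 33.2, 30.9 and 42.8 on DES arrays and 60.1, 43.5 and 61.1 on BPA arrays. The means of 1436926_at were 40.1 for control, 35.6 for DES and 54.9 for BPA, so it passed the filter of 41.0 through the BPA arrays, and its excess with BPA was in part set by that choice. Each BPA array was above all control arrays, with a fitted difference of 0.39 ± 0.23 (SE, adjusted p 0.731 by limma), which was 0.21 on unscaled values. The same probe set gave -0.16 ± 0.23 for DES, and -0.07 without the control E18 array or without the DES E17 array. Over all alternative settings and sets of arrays its BPA difference reached 0.48, and its DES difference ran from -0.27 to -0.06. On 1441921_x_at the differences were 0.25 ± 0.25 for BPA and 0.09 ± 0.25 for DES. The BPA one was 0.03 on unscaled values, 0.12 without the control E17 array and 0.04 without the BPA P0 array, against 0.39 without the control P0 array and 0.48 without the BPA E18 array. The third probe set, 1422986_at, was below the filter and read 28.1 to 35.2 on BPA arrays against 35.7 to 42.3 on control arrays, the opposite order.

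Esrrg, the member known to bind bisphenol A tightly, also had 2 tested probe sets that ran apart (r -0.35). Probe set 1455267_at read 116, 108 and 107 on control arrays, 116, 130.0 and 125 on DES arrays and 125, 108 and 60.8 on BPA arrays. The BPA P0 array was alone in being low, and the other 8 lay between 107 and 130.0. The fitted BPA difference was -0.22 ± 0.21 (SE, adjusted p 0.851 by limma) with that array and 0.06 without it. It was -0.42 on unscaled values and when the BPA E17 array was left out, and -0.10 when the control P0 array was. Probe set 1421747_at read 64.0, 62.6 and 72.9 on control arrays, 87.8, 90.8 and 67.0 on DES arrays and 65.6, 81.4 and 88.9 on BPA arrays. Its differences were 0.27 ± 0.20 (SE) for DES and 0.22 ± 0.20 for BPA. The DES one was 0.15 without the DES E17 array and 0.18 without the control E18 array, against 0.47 without the DES P0 array. The BPA one was 0.0087 on unscaled values, 0.13 without the control E18 array and 0.10 without the BPA P0 array, against 0.35 without the BPA E17 array. The third, 1457896_at, was below the filter, at 9.79 to 34.0.

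**Figure D2:**
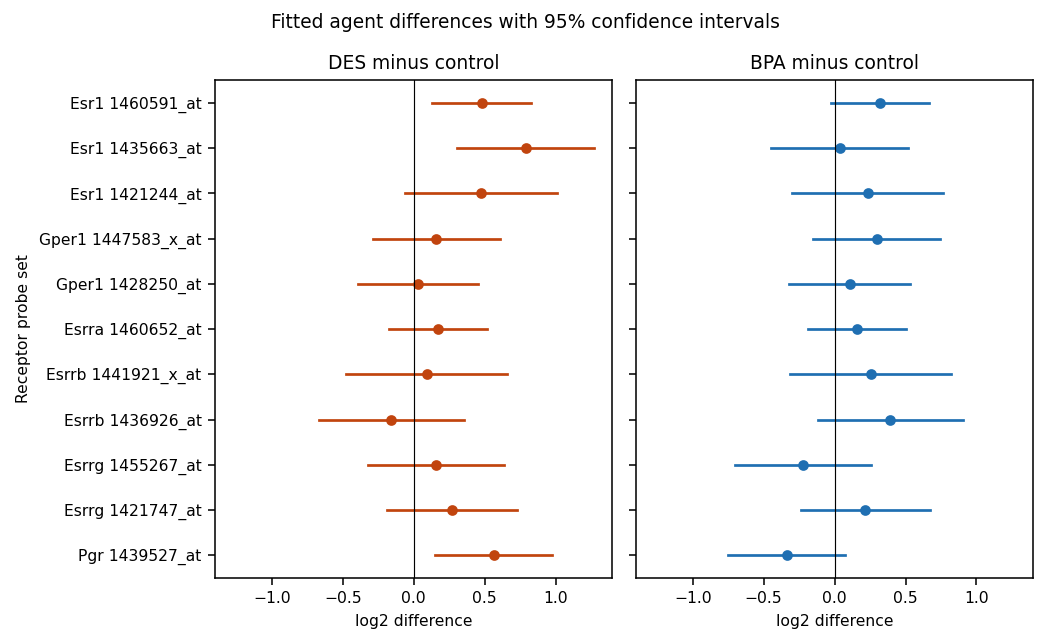
Fitted log2 differences (horizontal axes) of DES and of BPA from control for the 11 tested receptor probe sets (vertical axis), with points for the estimate and lines for the 95% interval from limma. Only the DES intervals of Esr1 1460591_at, Esr1 1435663_at and Pgr 1439527_at leave out 0, and 0 of 11 passed the adjusted threshold for either agent.

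Counted by array order, 4 of the 11 probe sets (all 3 of Esr1, and Pgr) were above control on the DES array at all 3 ages, against 14.7% of all probe sets, and 0 were below at all 3 ages, against 13.1%. DES and control arrays did not overlap, with DES higher, for Pgr 1439527_at and Esr1 1421244_at, where the share of all was 5.86%, and with DES lower for 0, against 5.04%. For BPA, 5 of the 11 were above control at all 3 ages (1 probe set each of Esr1, Gper1, Esrra, Esrrb and Esrrg) against 14.5% of all. Pgr alone was below at all 3 ages, 1 of 11 against 15.9%. BPA and control arrays did not overlap, with BPA higher, for Gper1 1447583_x_at and Esrrb 1436926_at, where the share of all was 5.05%, and with BPA lower for 0, against 5.26%. Esr1 1421244_at and Esrrb 1436926_at had control means of 37.1 and 40.1, below the filter, and passed it through exposed arrays, which favours an excess over control in both, so these counts are descriptions and support nothing. Probe sets of 1 gene are not independent either, and the 4 for DES come from 2 genes.

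Whether the agent differences changed with age was fitted as a linear step per age, which leaves 2 residual degrees of freedom. For DES the step was -0.40 ± 0.15 (SE) for Esr1 1460591_at (adjusted p 0.658 by limma), whose excess over control was 1.88-fold, 1.37-fold and 1.08-fold in order of age. For Pgr 1439527_at it was 0.36 ± 0.19 (adjusted p 0.714), from 1.12-fold, 1.61-fold and 1.88-fold. For BPA the step of Esrrg 1455267_at was -0.43 ± 0.20 (adjusted p 0.605), set by the BPA P0 array. None of the 11 probe sets was called for either agent, where 0% of all probe sets were called for DES and 0.0074% for BPA. At an unadjusted p under 0.05, limma gave 1 of 11 for DES (1950 of all) and 0 of 11 for BPA (2311 of all).

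**Figure D3:**
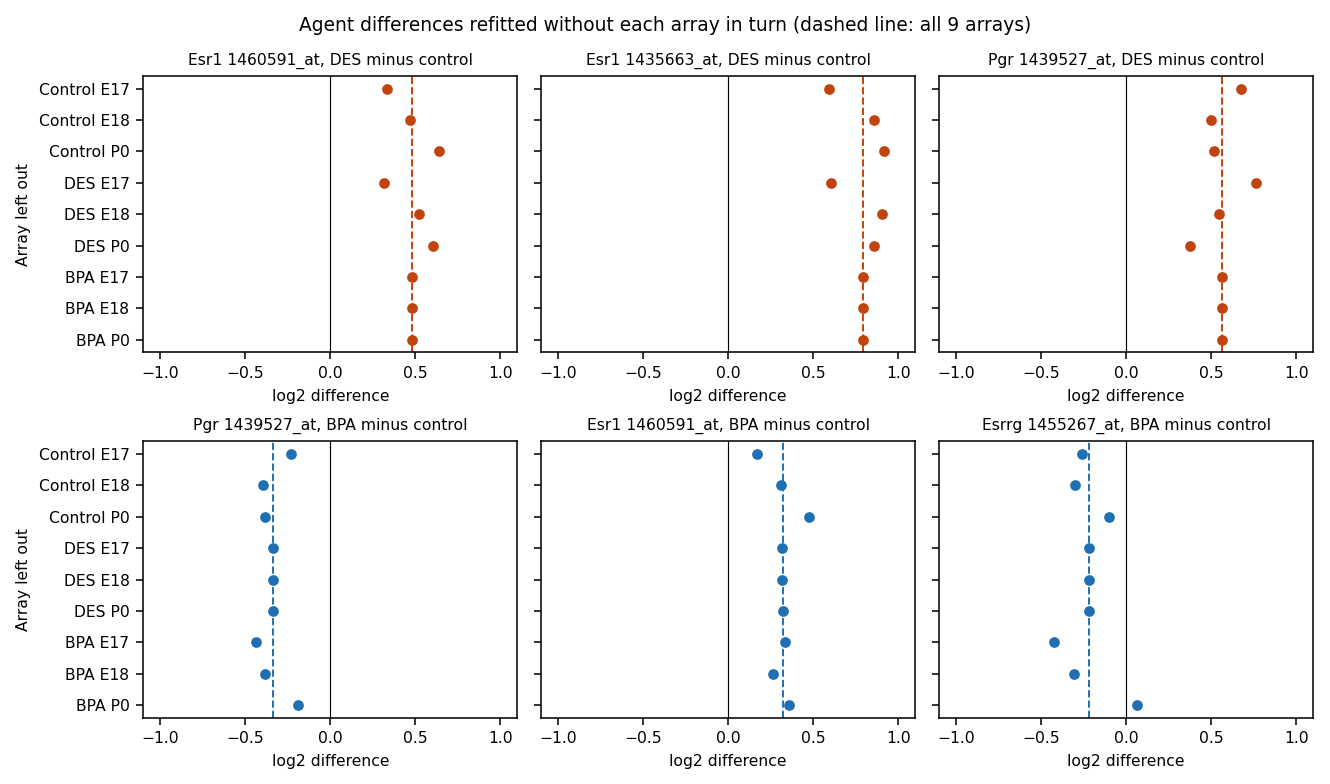
Fitted log2 difference from control (horizontal axes) when each array named on the vertical axis is left out, with the value over all 9 arrays as a dashed line. Esr1 1460591_at for DES is 0.31 without the DES E17 array, Pgr for DES is 0.37 without the DES P0 array, and Esrrg 1455267_at for BPA changes sign without the BPA P0 array.

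Across ages, Esr1 was lower at E18 than at E17 and at P0, and Esrra was lower at P0 than at E17. Neither passed the adjusted threshold. Markers of skeletal muscle moved with age as well. The skeletal muscle list (13 genes) summed to 4070 to 8332 at E17, 9682 to 13408 at E18 and 12090 to 16362 at P0. Not every gene of that list rose. Ckm read 817, 367 and 467 on control arrays, 514, 745 and 665 on DES arrays and 1040, 823 and 640 on BPA arrays. The smooth muscle list (9 genes) summed on control arrays to 36429 at E17, 22287 at E18 and 23906 at P0. In the same order it summed to 31444, 32169 and 28638 on DES arrays and to 38760, 36687 and 35990 on BPA arrays. DES arrays therefore did not share the fall at E18, and BPA arrays fell less. Their part in the age differences of the receptors was not tested. With 1460591_at the means over agents were 303 ± 93.3 at E17, 183 ± 30.2 at E18 and 303 ± 11.2 at P0 (SD, n = 3). The fitted difference of E18 from E17 was -0.68 ± 0.16 (SE, adjusted p 1 by limma), and that of P0 from E18 was 0.72 ± 0.16 (adjusted p 0.237). With 1435663_at they were -0.74 ± 0.22 (adjusted p 1) and 0.69 ± 0.22 (adjusted p 0.277). The third Esr1 probe set gave -0.01 ± 0.24 and 0.42 ± 0.24, so it shared the second step in sign and showed no first step.

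Esr1 1460591_at, Esr1 1435663_at and Esrrb 1436926_at were lowest at E18 with each of the 3 agents, 3 of 11 against 2.76% of all probe sets. The last had an E18 mean of 37.6, below the filter, and passed it through the other ages. The unscaled values qualify the step to P0 of Esr1 with BPA, since 1460591_at read 191 at E18 and 192 at P0 there. Without the DES E17 array the difference of E18 from E17 was -0.51 for 1460591_at and -0.56 for 1435663_at. Without the DES P0 array the step from E18 to P0 of 1460591_at was 0.84, with an adjusted p of 0.0439 by limma, in a fit that called 657 of all probe sets against 0 with all 9 arrays.

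Esrra 1460652_at had means over agents of 217 ± 12.1 at E17, 179 ± 24.7 at E18 and 146 ± 22.9 at P0 (SD, n = 3). P0 was below E17 with each agent, at 0.59 of E17 for control, 0.84 for DES and 0.59 for BPA, and it was the only 1 of the 11 with that order, against 19% of all probe sets. The fitted difference of P0 from E17 was -0.57 ± 0.15 (SE), with a 95% interval of -0.91 to -0.23 and an adjusted p of 0.146 by limma. Without the DES P0 array it was -0.71, with an adjusted p of 0.0401 by limma, in a fit that called 1600 of all probe sets against 25 with all 9 arrays. Esrrg 1455267_at gave -0.33 ± 0.21 from E17 to P0 and -0.05 without the BPA P0 array or -0.13 without the BPA E17 array, while Pgr 1439527_at gave -0.19 ± 0.18. For E18 against E17 and for P0 against E18, 0 of 11 receptor probe sets were called, against 0% of all in both. For P0 against E17, 0 of 11 were called, against 0.0925%. The counts at an unadjusted p under 0.05 by limma were 2, 2 and 1 of 11, and 745, 3639 and 4684 of all. Whether a lower signal came from fewer cells with the receptor or from less RNA per cell cannot be told apart in whole tissue.

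**Figure D4:**
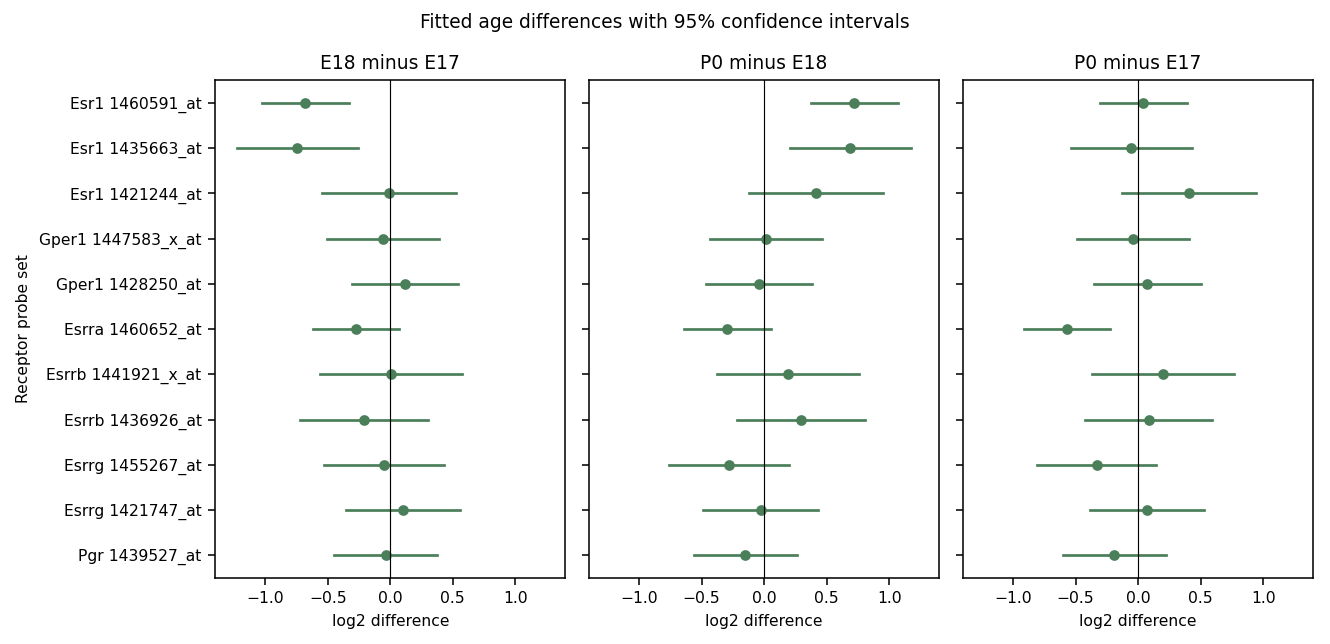
Fitted log2 differences between ages (horizontal axes) for the 11 tested receptor probe sets (vertical axis), as estimate and 95% interval from limma over all 3 agents. The intervals of Esr1 1460591_at and 1435663_at lie below 0 for E18 minus E17 and above 0 for P0 minus E18, and that of Esrra lies below 0 for P0 minus E17.

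The genes that work with these receptors were followed as 7 lists, each gene through its brightest probe set, and limma called 0 genes of any list for either agent. Coactivators, which carry the activating signal from bound receptor, were higher with DES for 14 of 24 tested genes (median 0.01) and with BPA for 7 of 24 (median -0.06). The largest were Ddx5, an RNA helicase coactivator, at -0.27 ± 0.07 (SE) with DES, and Med1, the Mediator subunit that contacts nuclear receptors, at -0.45 ± 0.26 with BPA. Med1 read 302 on the BPA P0 array and 697 to 875 on the other 8. Corepressors were higher for 7 of 13 with DES (median 0.01) and for 6 of 13 with BPA (median -0.05). Among them Nrip1, a corepressor of ligand-bound estrogen receptor, gave -0.26 ± 0.10 with BPA, and Rcor1 gave 0.27 ± 0.13 with DES. Chaperones and cochaperones of the receptors were higher for 7 of 9 with DES (median 0.04), the largest being Stub1 at 0.22 ± 0.12. With BPA 4 of 9 were higher (median -0.0037). Pioneer and partner factors were higher for 9 of 13 with DES (median 0.06) and 6 of 13 with BPA (median -0.01). In that list Greb1, a cofactor and target of Esr1, gave 0.36 ± 0.34 with DES, and Gata3 gave -0.24 ± 0.12 with DES. Foxa2 gave -0.43 ± 0.20 with BPA.

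Target genes of the estrogen and progesterone receptors in the reproductive tract did not share a direction. With DES 15 of 28 tested were higher (median 0.0023), and with BPA 11 of 28 (median -0.03). The medians over all 27022 probe sets, against which all list medians here can be read, were 0.0035 for DES and -0.0043 for BPA. This list includes Pgr itself. The largest differences belonged to Sprr2f, a small proline-rich protein of epithelial barriers, which read 15.2, 43.3 and 29.3 on control arrays, 29.3, 77.2 and 141 on DES arrays and 56.0, 77.3 and 36.3 on BPA arrays. Its fitted differences were 1.20 ± 0.41 (SE) for DES and 0.87 ± 0.41 for BPA (adjusted p 0.844 and 0.671 by limma). Sprr2f passed the filter through exposed arrays, which favours an excess over control. Tff3, a secreted mucosal peptide, gave 0.67 ± 0.27 with DES and 0.88 ± 0.27 with BPA, from control signals of 110.4, 41.4 and 37.2. The classical uterine target Ltf gave -0.44 ± 0.21 with DES, and Igf1 gave -0.12 ± 0.08. Across ages 1 gene of the list was called, Txnip, an inhibitor of thioredoxin, which rose by 1.06 ± 0.14 from E17 to P0 (adjusted p 0.0355 by limma), where 0.0925% of all probe sets were called. It was not called without a variance trend, without the control E17 array or without the DES E17 array (alone or with the BPA P0 array), settings in which 0 of all probe sets were called.

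Target genes of the estrogen-related receptors, mostly of mitochondrial respiration and fat oxidation, were higher with DES for 25 of 33 tested (median 0.04) and with BPA for 26 of 33 (median 0.09). Over all probe sets 50.8% were higher with DES and 49.0% with BPA, a background that holds for every list here. These counts use the same control arrays and 0 genes were called. The smooth muscle list summed to 22287 to 36429 on control arrays, 28638 to 32169 on DES arrays and 35990 to 38760 on BPA arrays. The skeletal muscle list summed to 7866, 13408 and 14691 on control arrays and 8332, 11983 and 16362 on DES arrays. On BPA arrays it summed to 4070, 9682 and 12090, below control at each age, although its member Ckm was above control at each age. The part of either muscle in these counts was not tested. Tfb1m, a mitochondrial rRNA methyltransferase, read 272, 258 and 247 on control arrays, 328, 377 and 373 on DES arrays and 323, 339 and 328 on BPA arrays. All 6 exposed arrays were above the 3 control arrays, with differences of 0.46 ± 0.11 (SE, adjusted p 0.844 by limma) for DES and 0.34 ± 0.11 (adjusted p 0.497) for BPA. Cycs, cytochrome c, gave 0.20 ± 0.06 with DES and 0.35 ± 0.06 with BPA (adjusted p 0.844 and 0.329). Perm1 gave 0.41 ± 0.31 and Cox7a1 0.39 ± 0.26 with BPA, the 2 largest for that agent. Cox7a1 read 35.1, 40.5 and 34.2 on control arrays, all below the filter. It passed the filter through exposed arrays, which favours an excess over control. This list includes Esrra, and Cycs was picked out after its value was seen.

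Other steroid and related nuclear receptors split evenly, with 8 of 16 higher for DES (median 0.04) and 9 of 16 for BPA (median 0.01). The glucocorticoid receptor Nr3c1 gave 0.12 ± 0.13 (SE) and 0.05 ± 0.13. Rxrg, a retinoid X receptor, gave -0.89 ± 0.26 with BPA (adjusted p 0.458 by limma), from 59.9, 58.9 and 81.4 on control arrays to 31.0, 18.4 and 59.8 on BPA arrays. The first pair of these BPA values was below the filter. Rxrg passed the filter through control and DES arrays, which favours a fall with BPA. Ppara gave 0.47 ± 0.31 with DES, its control P0 array being at 17.5 and the other 8 arrays between 51.2 and 75.3.

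**Figure D5:**
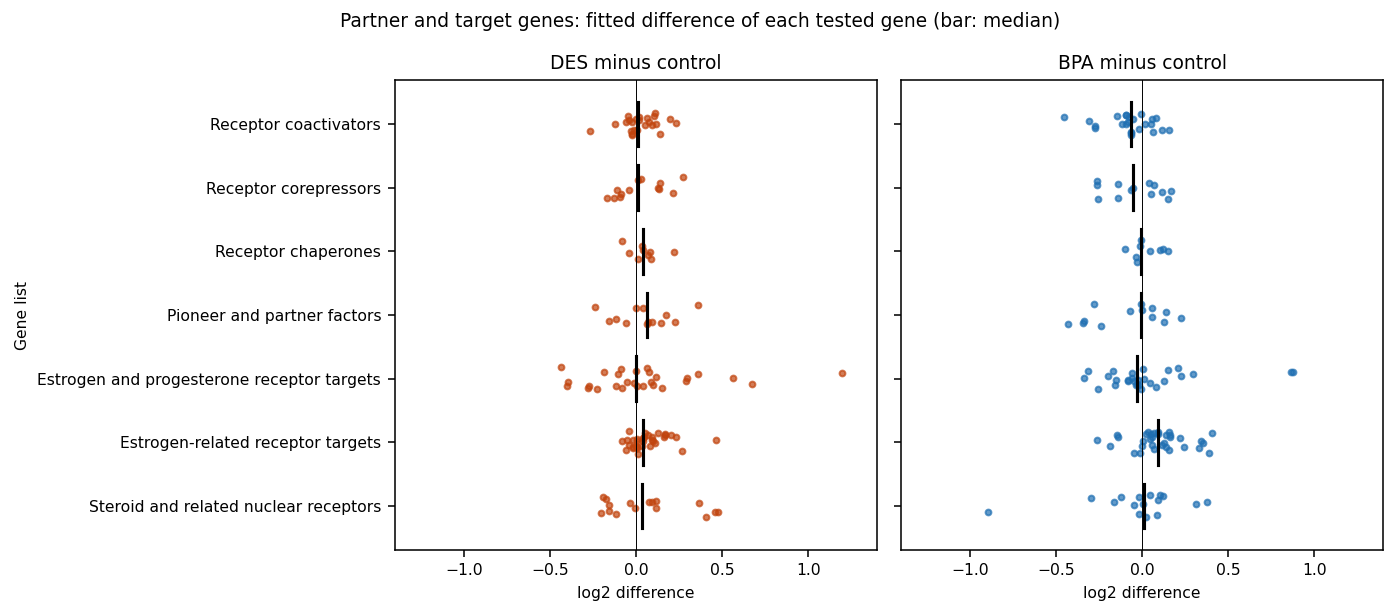
Fitted log2 difference from control (horizontal axes) of each tested partner or target gene, by list (vertical axis), with a bar at the list's median. Medians lie between -0.06 and 0.09, and Sprr2f at 1.20 with DES and Rxrg at -0.89 with BPA are the farthest genes. Sprr2f passed the filter through exposed arrays and Rxrg through control and DES arrays, which favours these directions.

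The genes whose profile over the 9 arrays was most like that of each receptor were taken from 13407 other tested genes by Pearson correlation, as a description of these arrays, which share agents and ages. For Esr1 they were 9430038I01Rik (r 0.94), Dtwd1 (0.91) and Pla2g2d (0.90), and the most opposite was Ceacam1 (-0.94). For Pgr they were Pgap2 (0.96), Fndc3c1 (0.95) and Pold2 (0.95), with Timm23 most opposite (-0.98). Fndc3c1 read 145 to 169 on control arrays, 186 to 212 on DES arrays and 113 to 151 on BPA arrays, so its DES arrays were apart from both other groups as those of Pgr were. For Esrra they were Frem2 (0.98), an extracellular matrix protein of epithelia, Kcng1 (0.98) and Ckb (0.97), with N6amt1 most opposite (-0.96). Frem2 read 1008 at E17 and 595 at P0 on control arrays. For Esrrg 1455267_at they were Fgd2 (0.99), Nfyb (0.98) and Mpst (0.97), with Mon1b most opposite (-0.99), and for all of these the BPA P0 array was the extreme one, as it was for Esrrg. For Gper1 they were 4930429B21Rik (0.98), Mpzl3 (0.97) and Mfsd3 (0.94), with Tmem26 most opposite (-0.95), and in each the control P0 array was at the end of the range. For Esrrb they were Chaf1b (0.94), Adprhl2 (0.94) and Dtx4 (0.94), with Rbl2 most opposite (-0.92).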

How the data were processed

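Probe set intensities on a linear scale, as the authors deposited them, were made with MAS5, per the submitters' processing notes; its version and scaling target are not given in the sources used here. The members and gene lists were chosen with earlier results of these data known. Of 45101 probe sets, 64 controls were left out. Arrays were quantile normalised, because their deposited levels differed. Log2 was taken after adding 5.46, the 10th percentile of the signals, so differences of dim probe sets are understated. The 27022 probe sets whose mean log2 was at least 5.54 (the 40th percentile) were tested with limma 3.58.1 in R 4.3.3, with agent and age as factors, moderated variance with an intensity trend, 4 residual degrees of freedom and Benjamini-Hochberg adjustment over all of them. A second model added a linear age step per agent. The fitting code was run on simulated data with known added differences, to check that mean estimates were recovered. The added differences were larger than any agent difference fitted here for a receptor, so power at these sizes was not shown. With 1 array per agent and age, p-values rest on the scatter of these arrays alone, and that scatter may be technical. Named genes were the members, the 3 most alike profiles and the most opposite profile of each, and genes from the 2 largest differences per list and agent. Not all of the last are named. Nr3c1, Igf1, Ltf, Cycs, the sex-linked genes and the single genes of the tissue marker lists were added with their values in view. Ages beyond P0 were not analysed here. Sequences are from RefSeq (GRCm38.p6); all 7 members matched by symbol. The number of arrays limits the precision.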

Additional observations from a re-analysis of the deposited data

Results flagged for a closer look

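Pgr 1439527_at had fitted log2 differences from control of opposite sign, 0.56 with DES and -0.34 with BPA. Every DES array was above, and every BPA array below, the control array of the same age. Neither difference passed the adjusted threshold (adjusted p 0.844 and 0.710 by limma). The BPA interval of -0.75 to 0.08 included 0, and the BPA difference was -0.19 without the BPA P0 array. On Pgr 1421444_at, below the filter, both exposed groups were above the same-age controls at every age. Fitted signs also differed for Esrrb 1436926_at (-0.16 with DES, 0.39 with BPA) and Esrrg 1455267_at (0.16 and -0.22). The difference between the agents was not tested, because the doses differ and both comparisons use the same control arrays.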

How the results depend on the processing

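Of 672 refits of the 41 receptor differences given, under another scaling, pseudocount, filter, variance model, set of factors or set of arrays, 26 changed sign and 2 passed the threshold. With all 9 arrays, the differences that changed sign lay between -0.22 and 0.16. On values as deposited they were BPA against control for Gper1 1428250_at (-0.095), Esr1 1435663_at (-0.15) and Esrra 1460652_at (-0.083), and P0 against E17 for Esr1 1460591_at (-0.27); these values move the median of all probe sets by -0.24 for BPA and -0.29 for P0 against E17. Scaling to a trimmed mean gave -0.0051 for Gper1 1428250_at with DES. Without both the DES E17 and the BPA P0 arrays, an alternative chosen after seeing the data, Gper1 1428250_at gave -0.095 with DES, Esrrg 1455267_at 0.040 with BPA, and Esr1 1435663_at 0.27 for P0 against E17, while Esr1 1460591_at, Esr1 1435663_at and Pgr gave DES differences of 0.29, 0.58 and 0.74. Leaving out each array in turn gave ranges that crossed 0 for DES with Gper1 1428250_at (-0.095 to 0.12), Esrrb 1441921_x_at (-0.14 to 0.44), Gper1 1447583_x_at (-0.0083 to 0.30) and Esrrg 1455267_at (-0.0089 to 0.32). They crossed 0 for BPA with Esr1 1435663_at (-0.16 to 0.17) and Esrrg 1455267_at (-0.42 to 0.064), for E18 against E17 with Esr1 1421244_at (-0.17 to 0.13), and for P0 against E17 with Esr1 1435663_at (-0.25 to 0.13) and Esr1 1460591_at (-0.12 to 0.21). The cause was not tested. The count of receptor probe sets called was 0 to 1 for P0 against E18 and 0 to 1 for P0 against E17, the 1 being Esr1 1460591_at and Esrra 1460652_at without the DES P0 array, and 0 elsewhere. Over all probe sets, P0 against E17 called 25, and 391 on values as deposited, 62 with a pseudocount of 32, 56 with a filter at the 60th percentile, 83 with 1 probe set per gene, 7 with no filter, 0 without a variance trend and 0 to 1600 with an array left out; P0 against E18 called 0, and 7 as deposited and 657 without the DES P0 array; BPA against control called 0, and 33 as deposited, 2 with the stricter filter or 1 probe set per gene and up to 8 with an array left out; E18 against E17 called 0, and 3 as deposited; BPA by age called 2, and 449, 5, 8 and 0 as deposited, with a pseudocount of 32, with 1 probe set per gene and without a trend; and DES by age called 0, and 80 as deposited. DES against control called 0 in every alternative run, with 1521 at an unadjusted p under 0.05 by limma. The arrays are matched by age, which is a factor of the fit; without it, 0 probe sets were called for either agent by limma. Dim signals limit Esr2 and the other probe sets below the filter.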
